A study of Mus musculus with 5 samples.

Results

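The collagen and integrin genes of the mouse were described in ribosome-bound RNA from 2 brain regions of Rbp4-Cre mice. Members were chosen by gene symbol alone: every symbol of the form Col, number, a, number, every integrin alpha chain (Itga) and the integrin beta chains Itgb1 to Itgb8. The rule found 70 genes among the 32531 listed, of which 44 were collagens and 26 were integrins, the latter comprising 18 alpha and 8 beta chains. The libraries came from translating ribosome affinity purification (TRAP), in which ribosomes carrying an EGFP-tagged L10a protein are captured with an anti-EGFP antibody and the RNA bound to them is sequenced. All 5 libraries came from adult, untreated mice carrying Rbp4-Cre (line KL100) together with the Rosa26-LSL-EGFP/Rpl10a allele, which produces the tagged ribosomal protein in cells in which Cre, driven by Rbp4 regulatory sequence, has removed the stop cassette. The groups differed in the dissected tissue: 2 libraries were from the cerebral cortex and 3 from the dentate gyrus. Every library is an immunopurified fraction, and no input RNA or mouse without the tag was analysed here. No label ties a library to an animal. The p-values therefore rest on library-to-library spread alone, which may be technical.

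Collagens are matrix proteins built from triple helices of alpha chains. They are grouped into fibrillar collagens, sheet- or network-forming collagens such as collagen IV of basement membranes, the fibril-associated FACIT collagens, transmembrane collagens, multiplexins and others. Integrins are cell-surface receptors made of 1 alpha and 1 beta chain, and the pair decides which ligand is bound: collagens, laminins, proteins with an RGD motif such as fibronectin and vitronectin, or the counter-receptors of leukocytes. In the brain, integrins take part in cell migration, synapse formation and attachment of vessels and glia to basement membranes.

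Gene counts per library ran from 22600963 to 36837908. The 6 listed marker genes of dentate granule cells summed to 246 to 254 CPM in cortex and 3639 to 4010 CPM in dentate gyrus. CPM are counts per 1000000 gene counts after TMM scaling. All 6 of these markers passed the test towards dentate gyrus. The 6 markers of cortical projection neurons summed to 1218 to 1343 CPM in cortex and 77.2 to 199.9 CPM in dentate gyrus, and all 6 passed the test towards cortex. The lists were chosen with earlier results of these data known, so these calls are no independent check of the tissues. Markers of other cells were also present: interneuron markers summed to 878 to 897 CPM in cortex and 183 to 220 CPM in dentate gyrus, astrocyte markers to 140 to 163 and 57.0 to 96.0 CPM, and oligodendrocyte markers to 230 to 313 and 164 to 225 CPM. The interneuron sum was mostly Sst, at 641 to 699 CPM in cortex and 72.4 to 113 CPM in dentate gyrus. Of the 7 interneuron markers tested, 5 were called towards cortex (Sst, Gad2, Pvalb, Vip and Npy). Gad1 alone was called towards dentate gyrus (log2 fold change 0.93, adjusted p = 0.0276 in edgeR's test). The astrocyte sum was mostly Aldoc in cortex, at 88.8 to 127 CPM beside 18.1 to 21.3 CPM in dentate gyrus. Aldoc and Aldh1l1 were called towards cortex, and 0 of the 8 astrocyte markers towards dentate gyrus. Gjb6 was higher in both cortex libraries without a call, whereas Gfap, Aqp4, Slc1a3, Gja1 and Fgfr3 overlapped between the tissues. Among the 8 oligodendrocyte markers, Cnp and Ugt8a were called towards cortex and 0 towards dentate gyrus. The part of these other cells in the differences reported for collagens and integrins was not tested. A lower value in such bulk RNA can come from fewer cells of a type or from less RNA per cell, and these cannot be told apart.

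The 250 bases before the RefSeq transcription start (GRCm38.p6) of 3 members are shown because these genes differed between the tissues, reached at least 10 CPM in the higher tissue and have a window that overlaps no annotated exon. Col8a1 was higher in cortex, and Col25a1 and Itga4 were higher in dentate gyrus. The windows lie at chr16:57754738-57754987 on the minus strand for Col8a1, at chr3:130180595-130180844 on the plus strand for Col25a1 and at chr2:79255176-79255425 on the plus strand for Itga4. Capitals mark matches on either strand to the E-box motif CANNTG, bound by bHLH factors such as those of the NeuroD family, and to the GC box GGGCGG, which reads CCGCCC on the other strand.
Col8a1: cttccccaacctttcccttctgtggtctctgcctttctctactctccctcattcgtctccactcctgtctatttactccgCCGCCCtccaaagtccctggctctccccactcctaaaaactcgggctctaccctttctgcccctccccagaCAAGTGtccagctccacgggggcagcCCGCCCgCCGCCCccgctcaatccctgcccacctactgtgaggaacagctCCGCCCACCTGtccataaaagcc
Col25a1: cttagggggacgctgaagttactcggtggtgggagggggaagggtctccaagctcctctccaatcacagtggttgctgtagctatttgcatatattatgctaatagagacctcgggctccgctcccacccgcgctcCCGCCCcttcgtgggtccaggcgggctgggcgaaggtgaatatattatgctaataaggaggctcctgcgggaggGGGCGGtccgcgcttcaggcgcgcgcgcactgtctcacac
Itga4: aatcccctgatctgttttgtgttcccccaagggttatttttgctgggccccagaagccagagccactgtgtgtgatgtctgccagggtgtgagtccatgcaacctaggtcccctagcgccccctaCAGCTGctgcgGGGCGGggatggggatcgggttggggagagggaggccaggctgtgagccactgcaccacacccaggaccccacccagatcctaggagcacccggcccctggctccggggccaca
The Col8a1 window held 2 E-boxes and 4 GC boxes, and its last GC box overlaps an E-box. The Col25a1 window held 0 E-boxes and 2 GC boxes, with 18 CpG dinucleotides and 60.4% G+C, and the RefSeq start used lies inside the longer GENCODE gene. The Itga4 window held 1 E-box, 1 GC box and 6 CpG dinucleotides. None of the 3 windows contained TATAAA on either strand. Of all 32851 promoter windows of this length in the RefSeq table, 66.2% held CANNTG, 32.7% held GGGCGG and 12.4% held TATAAA. The table matched 53 of the 70 members with 58 windows, of which 58.6% held CANNTG, 50% held GGGCGG and 8.62% held TATAAA. These are matches of letters in a window and were not tested against the expression values.

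Of the 70 members, 65 had at least 1 count, and Col6a5, Col7a1, Itgad, Itgax and Itgb7 had 0 counts in all 5 libraries. The filter on low counts left 39 members for testing, 23 collagens and 16 integrins, and removed 26 others that had counts. In edgeR's quasi-likelihood test, 8 members passed an adjusted p of 0.05. Of the collagens, Col25a1 was higher in dentate gyrus and Col8a1 and Col26a1 were higher in cortex, 3 of 23 tested. Of the integrins, Itga1, Itga4, Itga8 and Itgb8 were higher in dentate gyrus and Itgb3 was higher in cortex, 5 of 16 tested. Among all 14136 genes tested, 21.3% were called, 10.5% towards dentate gyrus and 10.8% towards cortex, so the 8 of 39 members called (20.5%) lie near the background share. With cortex 1 and dentate gyrus 2 both left out, 4 of these 8 (Itga4, Itga8, Itgb3 and Col8a1) were still called, along with Itga3 and Itgal; without either cortex library 5 were called, those 4 and Itgb8. The median log2 fold change, dentate gyrus over cortex, was -0.66 for the tested collagens and 0.10 for the tested integrins, beside 0.02 for all genes tested. Neither median kept its sign when libraries were left out, but each fit was filtered anew, so the genes tested differ between fits. That of the collagens was 0.97 without cortex 2, where 30 were tested. That of the integrins was -0.15 without dentate gyrus 2, with 16 tested, and -0.21 without dentate gyrus 3, with 15 tested. The libraries of the tissues did not overlap for 17 of the 39 tested members, 8 towards dentate gyrus and 9 towards cortex, beside 50.1% of all genes tested. Of the called members, Itgb3, Col8a1, Col26a1 and Itga1 passed the filter through 1 tissue only. Uncalled members such as Col6a2, Itgal and Itga2 also passed in this way. Members that passed are therefore not a sample of all members.

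**Figure D1:**
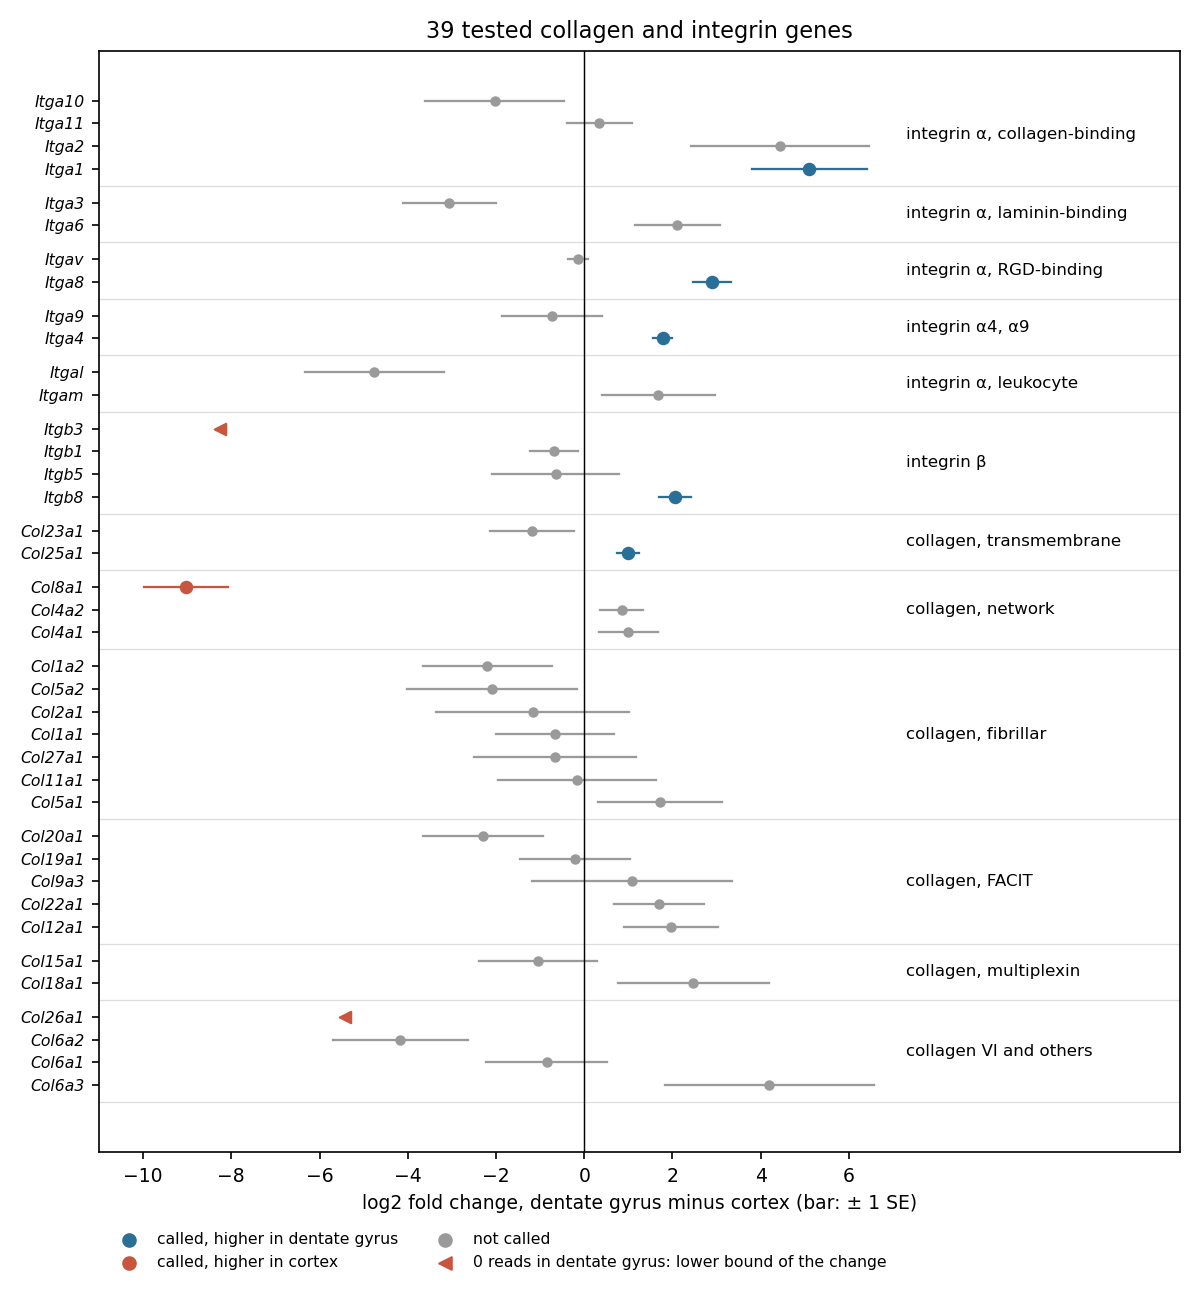
Log2 fold change of dentate gyrus over cortex (x axis) for each of the 39 tested collagen and integrin genes. Bars are ± 1 SE, except for Itgb3 and Col26a1, which have no bar. The SE is the absolute log2 fold change divided by the square root of edgeR's F statistic. Called genes are marked by tissue. Itgb3 and Col26a1 had 0 counts in dentate gyrus, and their triangles mark the lower bound of the change, 306-fold and 43.0-fold, not the fitted value. Col8a1 had 2 counts in all dentate gyrus libraries together, so its fitted size depends on the prior count.

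The median of the mean CPM over the libraries was 0.343 for the collagens and 1.40 for the integrins, beside 0.0815 for all genes listed, many of which had no count. The 44 collagens together reached 83.0 and 77.5 CPM in the cortex libraries and 72.9, 98.9 and 102 CPM in the dentate gyrus libraries, and these ranges overlap. The 26 integrins together reached 143 and 140 CPM in cortex and 230, 248 and 276 CPM in dentate gyrus, and all 3 dentate gyrus libraries were above both cortex libraries. Itga4 was the largest part of the dentate gyrus sums, with 112, 117 and 145 CPM beside 40.8 and 31.7 CPM in cortex. Of the 16 tested integrins, 8 had a positive and 8 a negative log2 fold change. A mean of at least 1 CPM over the 5 libraries was reached by 11 collagens and 14 integrins, and a mean of at least 10 CPM by 2 collagens (Col25a1 and Col4a2) and 4 integrins (Itga4, Itgav, Itgb8 and Itga8). Under 1 CPM in every library were 21 collagens and 9 integrins. Per kilobase of exon, the mean level in cortex was highest for Itgav with 4.86 CPM per kb, then Itga4 with 2.59, Itgb3 with 1.85, Col8a1 and Col25a1 with 1.79 each, Itgb1 with 1.68 and Itga3 with 1.43. In dentate gyrus the order began with Itga4 at 8.92 CPM per kb, then Itgav with 4.4, Col25a1 with 3.57, Itga8 with 3.0, Itgb8 with 2.62 and Col4a2 with 2.51. The dentate gyrus libraries of Itga4 were all above those of Itgav on this scale, while further down the order neighbours such as Col25a1 and Itga8 overlapped.

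**Figure D2:**
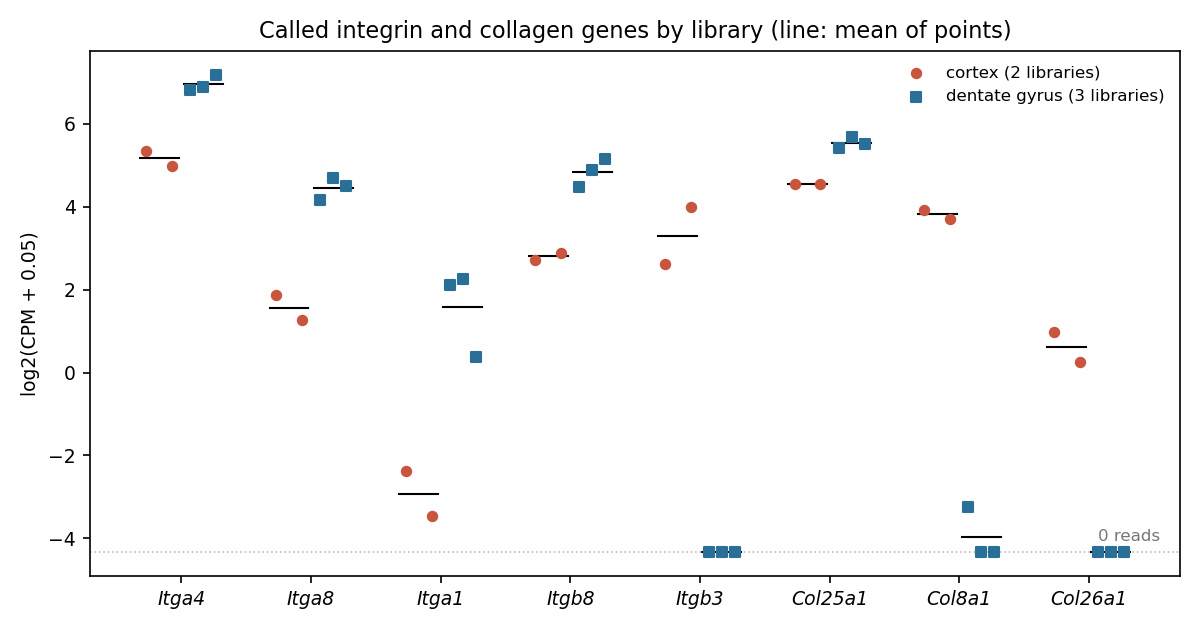
Level of the 8 called members in each of the 5 libraries as log2(CPM + 0.05) on the y axis, with points for cortex and dentate gyrus libraries and a line at the mean of the points. The tissues are separate for all 8 genes. Itgb3 and Col26a1 sit at the lowest possible value in the 3 dentate gyrus libraries.

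Among the alpha chains that recognise fibronectin, VCAM-1 or RGD ligands, Itga4 and Itga8 were higher in dentate gyrus, whereas the levels of Itgav overlapped. Itga4 (chr2:79255426-79333123, plus strand, GRCm38) encodes α4, which pairs with β1 or β7 and binds VCAM-1 and fibronectin. Its levels were 40.8 and 31.7 CPM in cortex and 112, 117 and 145 CPM in dentate gyrus. Every dentate gyrus library was above both cortex libraries, with means of 36.2 ± 6.39 (SD, n = 2) and 125 ± 18.0 CPM (SD, n = 3), a 3.44-fold difference. The log2 fold change was 1.78 (SE 0.21), with an adjusted p of 0.000328 in edgeR's test. The annotated exons of Itga4 share 1124 bases, 8.04% of their length, with the antisense gene Cerkl, which had 3 and 4 counts in cortex and 50, 122 and 26 in dentate gyrus. Itga9, whose α9 chain is the closest relative of α4, was measured at 4.56 and 4.80 CPM in cortex and 7.12, 1.02 and 0.235 CPM in dentate gyrus. Its dentate gyrus libraries lay on both sides of the cortex values, and the test did not call it (log2 fold change -0.74, SE 1.13, adjusted p = 0.714 in edgeR's test).

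Itga8 (chr2:12106632-12301922, minus strand) encodes α8, which pairs with β1 and binds nephronectin, fibronectin and other RGD proteins. It stood at 3.59 and 2.34 CPM in cortex and at 17.8, 26.0 and 22.5 CPM in dentate gyrus. The groups did not overlap, and the means of 2.96 ± 0.886 (SD, n = 2) and 22.1 ± 4.08 CPM (SD, n = 3) differed 7.46-fold. The log2 fold change was 2.89 (SE 0.43, adjusted p = 0.00115 in edgeR's test). An antisense gene, E030013I19Rik, shares 372 exon bases with Itga8, 5.05% of its exons, and had 30 and 79 counts in cortex and 142, 71 and 254 in dentate gyrus. Counting strand is not given in the sources used here, so reads in the shared bases cannot be assigned to either gene. Itgav, encoding αv, the common partner of β1, β3, β5, β6 and β8, stood at 55.3 and 49.0 CPM in cortex and 44.7, 44.8 and 52.5 CPM in dentate gyrus. These ranges overlap, and the log2 fold change was -0.14 (SE 0.22, adjusted p = 0.712 in edgeR's test). The other RGD-binding chains were nearly absent: Itga5 had 17 counts in 1 dentate gyrus library and 0 elsewhere, and Itga2b, the platelet partner of β3, had 19 and 9 counts in cortex and 1 count in dentate gyrus.

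Of the β chains that pair with αv, Itgb8 was called towards dentate gyrus and Itgb3 towards cortex. Itgb8 (chr12:119158022-119238802, minus strand) encodes β8, whose complex with αv activates latent TGF-β. Itgb8 was measured at 6.52 and 7.38 CPM in cortex and 22.2, 29.3 and 35.5 CPM in dentate gyrus. All dentate gyrus libraries were above the cortex libraries, with means of 6.95 ± 0.604 (SD, n = 2) and 29.0 ± 6.65 CPM (SD, n = 3), a 4.17-fold difference. The log2 fold change was 2.06 (SE 0.36), with an adjusted p of 0.00272 in edgeR's test, and with cortex 1 and dentate gyrus 2 both left out it was 0.0536. Itgb3 (chr11:104608000-104670476, plus strand), encoding the β3 chain studied at platelets and synapses, had 212 and 384 counts in cortex, 6.04 and 15.7 CPM, and 0 counts in all 3 dentate gyrus libraries. Its cortex mean was 10.9 ± 6.86 CPM (SD, n = 2), and against a floor of 3 counts over the dentate gyrus group, 0.0356 CPM, Itgb3 was at least 306-fold higher in cortex (adjusted p = 0.000588 in edgeR's test). This bound rests on the cortex mean and on the pooled dentate gyrus depth: it was 170-fold without cortex 2 and 174-fold without dentate gyrus 1.

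None of the other β chains was called by edgeR after filtering (0 of 2 tested at an unadjusted p under 0.05), and limma voom called none of them. Itgb1, the most widely shared β chain, stood at 7.21 and 6.52 CPM in cortex and 4.0, 4.66 and 4.11 CPM in dentate gyrus. Both cortex libraries were above the dentate gyrus libraries, but the log2 fold change of -0.69 (SE 0.55) had an adjusted p of 0.432 in edgeR's test. Itgb5 ranged from 0.0855 to 3.40 CPM in cortex and from 0.266 to 1.60 CPM in dentate gyrus, with overlap. Itgb6 had 90 counts in dentate gyrus 2 and 0 counts in the 4 other libraries, so its level rests on 1 library. It was not tested by edgeR after filtering, and edgeR without a filter and DESeq2 called it on that library (adjusted p 0.0173 and 2.13e-08). Itgb4, the partner of α6 in hemidesmosomes, had 13 counts in cortex 2, 1 in dentate gyrus 3 and 0 elsewhere, and Itgb2, the leukocyte β chain, had 6 counts in dentate gyrus 1 alone.

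**Figure D3:**
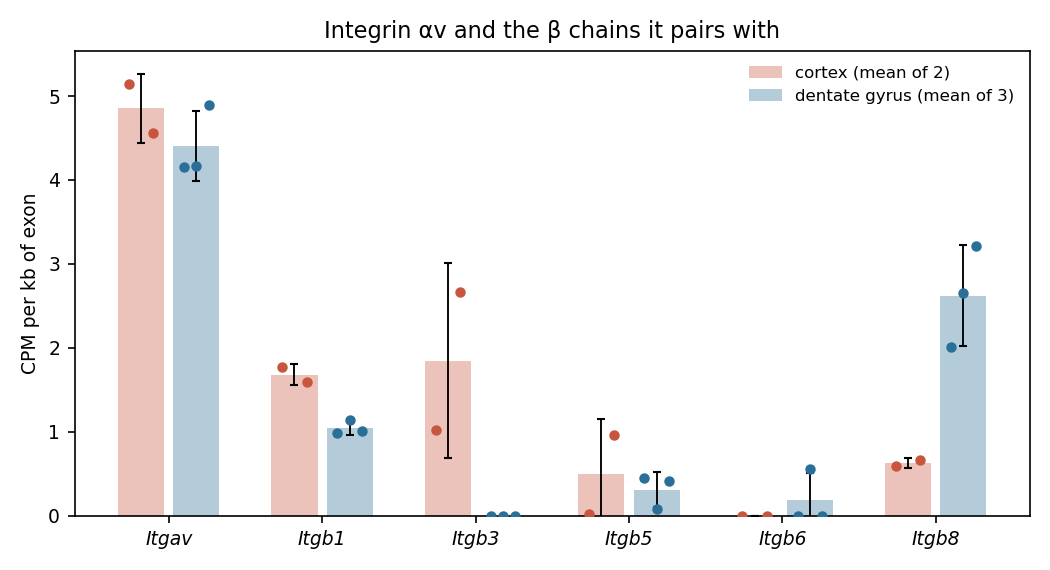
CPM per kb of exon (y axis, from 0) of Itgav and of the β chain genes Itgb1, Itgb3, Itgb5, Itgb6 and Itgb8 in each cortex and dentate gyrus library. Itgav lies between 4.16 and 5.15 CPM per kb in all 5 libraries, whereas Itgb3 is seen in cortex alone and Itgb8 is higher in dentate gyrus.

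Ratios of levels per kb of exon set chains that can pair beside each other within a library. Itgav exceeded Itgb8 8.73 and 6.84 times in the cortex libraries and 2.07, 1.57 and 1.52 times in the dentate gyrus libraries. Itgav exceeded Itgb3 5.03 and 1.71 times in cortex, and no ratio was formed in dentate gyrus, where Itgb3 was at 0. For the partners of β1, the ratio of Itga4 to Itgb1 was 1.65 and 1.42 in cortex and 8.14, 7.35 and 10.3 in dentate gyrus. The ratio of Itga8 to Itgb1 was 0.276 and 0.199 in cortex and 2.47, 3.09 and 3.03 in dentate gyrus. Itgb1 was thus above Itga8 in both cortex libraries and below it in all dentate gyrus libraries.

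Of the 4 collagen-binding alpha chains, Itga1 alone was called. Itga1 (chr13:114953096-115101964, minus strand) encodes α1, a receptor for collagens with β1. It had 5 and 1 counts in cortex, 0.142 and 0.0410 CPM, and 155, 106 and 32 counts in dentate gyrus, 4.27, 4.71 and 1.25 CPM. The groups did not overlap, and means of 0.0917 ± 0.0717 (SD, n = 2) and 3.41 ± 1.88 CPM (SD, n = 3) differed 37.2-fold on few cortex counts (23.9-fold without cortex 2). The log2 fold change was 5.11 (SE 1.30, adjusted p = 0.0202 in edgeR's test). This call did not hold in limma voom (adjusted p = 0.104), nor without cortex 1 (0.0603), without cortex 2 (0.116), or without dentate gyrus 2 (0.0504). Summed endothelial markers, a cell type in which α1 is known, were 10.2 to 11.5 CPM in cortex and 18.1 to 49.1 CPM in dentate gyrus, with 0 of 9 tested of 10 listed called by edgeR (0 at an unadjusted p under 0.05), 0 by DESeq2 and 0 by limma voom. Of all 14136 genes tested, 3551 were higher in every dentate gyrus library than in both cortex libraries. Of the endothelial markers, Emcn, Pecam1, Kdr, Tek, Slco1a4 and Abcb1a were also higher in every dentate gyrus library, the direction of Itga1. Emcn, for example, stood at 0.883 and 0 CPM in cortex and 4.27, 5.06 and 2.07 CPM in dentate gyrus. Flt1, Cdh5 and Ly6c1 overlapped, Cldn5 had 2 counts in all, and the part of these cells in the Itga1 result was not tested.

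The other collagen-binding chains were not called. Itga11, encoding α11, a receptor for fibrillar collagens, stood at 5.61 and 1.60 CPM in cortex and 3.36, 4.79 and 5.64 CPM in dentate gyrus (log2 fold change 0.35, SE 0.74, adjusted p = 0.799 in edgeR's test). Its direction turned without cortex 2, to a log2 fold change of -0.32. Itga2, encoding α2, had 0 and 2 counts in cortex and 8, 44 and 15 in dentate gyrus, higher in every dentate gyrus library (log2 fold change 4.44, SE 2.02, adjusted p = 0.156 in edgeR's test). Itga10 had 43 and 5 counts in cortex and 3, 1 and 10 in dentate gyrus, and 33.5% of its exon bases are shared with another GENCODE gene, for which no count was used here.

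The laminin-binding chains showed no called gene in edgeR's test, with 1 of 2 tested at an unadjusted p under 0.05, while DESeq2 and limma voom each called Itga3. Itga3, encoding α3, was measured at 7.78 and 8.53 CPM in cortex and at 0.276, 2.49 and 0.196 CPM in dentate gyrus. Both cortex libraries were above all dentate gyrus libraries, of which dentate gyrus 2 was the highest (log2 fold change -3.06, SE 1.05, adjusted p = 0.0658 in edgeR's test). In edgeR's test the adjusted p was 0.00307 without dentate gyrus 2 and 0.00496 without a filter on low counts. DESeq2 and limma voom gave 0.0176 and 0.00999. Itga6, encoding α6, stood at 0.370 and 1.39 CPM in cortex and 4.05, 2.53 and 4.81 CPM in dentate gyrus, which did not overlap (log2 fold change 2.11, SE 0.97, adjusted p = 0.161 in edgeR's test). Itga7 had at most 17 counts in a library and was not tested.

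Among the leukocyte alpha chains edgeR called 0 of 2 tested, with 1 at an unadjusted p under 0.05, DESeq2 called Itgal and limma voom called 0. Itgal, encoding αL of LFA-1, stood at 1.34 and 5.49 CPM in cortex and at 0.0276, 0.355 and 0 CPM in dentate gyrus, with both cortex libraries higher (log2 fold change -4.75, SE 1.58, adjusted p = 0.0596 in edgeR's test). Without dentate gyrus 2 the adjusted p for Itgal was 0.0143 in edgeR's test. Itgal was also called by edgeR without a filter and with the strict filter (at least 10 counts in every library of 1 tissue). Itgam, encoding αM of the microglial and myeloid receptor Mac-1, stood at 1.74 and 0.656 CPM in cortex and 8.11, 3.29 and 0.196 CPM in dentate gyrus, which overlap (log2 fold change 1.68, SE 1.29, adjusted p = 0.416 in edgeR's test). The annotated exons of Itgam share 68.7% of their bases with another GENCODE gene, for which no count was used here. Itgb2, the β chain with which αL and αM pair, had 6 counts in all 5 libraries together, and Itgae had 2 counts. Microglial markers summed to 9.37 to 9.63 CPM in cortex and 1.24 to 5.40 CPM in dentate gyrus, with 0 of 3 tested called by edgeR (1 at an unadjusted p under 0.05). Cx3cr1 stood at 5.84 and 5.66 CPM in cortex and 0, 1.11 and 0.313 CPM in dentate gyrus, and DESeq2 and limma voom called it towards cortex. P2ry12 overlapped, at 1.34 and 0.779 CPM in cortex and 0.607, 2.75 and 4.34 CPM in dentate gyrus, C1qa had 0 counts in every library, and the part of these cells in the values of Itgal and Itgam was not tested.

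Among the network-forming collagens, Col8a1 was higher in cortex and almost absent from dentate gyrus, whereas the 2 main collagen IV chains had overlapping levels. Col8a1 (chr16:57624258-57754737, minus strand) encodes the α1 chain of collagen VIII and is a short-chain network collagen whose promoter window held the 4 GC boxes. It had 532 and 316 counts in cortex, 15.2 and 13.0 CPM, and 2, 0 and 0 counts in dentate gyrus. The means were 14.1 ± 1.56 (SD, n = 2) and 0.0184 ± 0.0318 CPM (SD, n = 3), and edgeR gave a log2 fold change of -9.03 (SE 0.95) with an adjusted p of 0.000146. On the 2 dentate gyrus counts, the pooled ratio of cortex to dentate gyrus was 601, with a 95% Clopper-Pearson interval of 166 to 4971 that covers counting error only. Its partner chain Col8a2 had 1 and 11 counts in cortex and 0 in dentate gyrus, and was not tested.

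Col4a1 and Col4a2 encode the α1 and α2 chains of collagen IV, which assemble together in basement membranes and whose genes lie head to head. Col4a2 was measured at 7.58 and 10.8 CPM in cortex and 8.30, 22.5 and 19.1 CPM in dentate gyrus (log2 fold change 0.86, SE 0.49, adjusted p = 0.261 in edgeR's test). Col4a1 stood at 2.36 and 3.44 CPM in cortex and 6.18, 7.90 and 3.33 CPM in dentate gyrus (log2 fold change 1.0, SE 0.67, adjusted p = 0.348 in edgeR's test). In each gene 1 dentate gyrus library lay within the range of cortex. Per length, Col4a2 exceeded Col4a1 3.61 and 3.53 times in cortex and 1.52, 3.21 and 6.47 times in dentate gyrus. The other collagen IV chains were sparse: Col4a5 had 4 and 38 counts in cortex and 1 in dentate gyrus, Col4a3 had 10 counts and Col4a4 20 counts, all in dentate gyrus, and Col4a6 had 4 counts in all. Col10a1 had at most 8 counts in a library.

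Col25a1, a transmembrane collagen whose shed ectodomain is found in Alzheimer amyloid plaques as CLAC, had the highest mean CPM of the collagens. Col25a1 (chr3:130131501-130599877, plus strand) was measured at 23.2 CPM in both cortex libraries and at 42.5, 50.8 and 45.3 CPM in dentate gyrus. The groups did not overlap, and means of 23.2 ± 0.0154 (SD, n = 2) and 46.2 ± 4.21 CPM (SD, n = 3) differed 1.99-fold. The log2 fold change was 0.99 (SE 0.24), with an adjusted p of 0.0163 in edgeR's test. The adjusted p was 0.0837 without cortex 1, 0.0984 without cortex 2, 0.0528 without dentate gyrus 2 and 0.0560 with the replicate number as a block. The transmembrane collagen Col23a1 stood at 5.16 and 3.73 CPM in cortex and 0.662, 4.26 and 0.939 CPM in dentate gyrus, with dentate gyrus 2 inside the cortex range (log2 fold change -1.19, SE 0.95, adjusted p = 0.435 in edgeR's test). Col13a1 and Col17a1 had at most 19 counts in a library and were not tested.

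Col26a1 (chr5:136741759-136883209, minus strand), a short collagen of the extracellular matrix, had 67 and 28 counts in cortex, 1.91 and 1.15 CPM, and 0 counts in dentate gyrus. The cortex mean of 1.53 ± 0.538 CPM (SD, n = 2) was at least 43.0-fold higher than the floor of 3 counts over the dentate gyrus group (adjusted p = 0.0203 in edgeR's test). This call rested on 2 libraries: the adjusted p was 0.165 without cortex 1, 0.0883 without cortex 2 and 0.109 with the replicate block. The bound was 24.5-fold without dentate gyrus 1, the deepest library of its tissue. Of collagen VI, whose beaded filaments surround many cells, Col6a2 stood at 2.08 and 2.42 CPM in cortex and 0, 0.178 and 0.196 CPM in dentate gyrus (log2 fold change -4.17, SE 1.53, adjusted p = 0.0825 in edgeR's test). DESeq2 called Col6a2 with an adjusted p of 0.0251, and edgeR with the strict filter also called it. Col6a1 had 44 and 21 counts in cortex and 3, 22 and 18 in dentate gyrus, and Col6a3 had 0 and 2 in cortex and 20, 0 and 45 in dentate gyrus, so these chains did not share a direction in every library. Col28a1 had 45 and 5 counts in cortex and 0 in dentate gyrus, and Col6a4 and Col6a6 had at most 14 counts in a library.

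None of the 5 tested FACIT collagens was called by edgeR, with 0 at an unadjusted p under 0.05, and DESeq2 and limma voom each called 0. Their values differed widely between the dentate gyrus libraries. Col19a1 stood at 2.85 and 3.03 CPM in cortex and 0.193, 0.755 and 6.69 CPM in dentate gyrus, where dentate gyrus 3 was above and the other dentate gyrus libraries below cortex (log2 fold change -0.21, SE 1.25, adjusted p = 0.933 in edgeR's test). Its direction turned to 0.33 without dentate gyrus 1 and 0.21 without dentate gyrus 2. Col22a1 stood at 2.28 and 0.656 CPM in cortex and 2.54, 1.69 and 10.2 CPM in dentate gyrus, again with dentate gyrus 3 highest (log2 fold change 1.70, SE 1.02, adjusted p = 0.290 in edgeR's test). Col20a1 stood at 3.05 and 1.84 CPM in cortex and 0.138, 1.29 and 0.0783 CPM in dentate gyrus, which did not overlap (log2 fold change -2.29, SE 1.35, adjusted p = 0.279 in edgeR's test). Col12a1 was higher in each dentate gyrus library, with 1.54, 4.53 and 2.54 CPM beside 0.399 and 1.07 CPM in cortex (log2 fold change 1.97, SE 1.06, adjusted p = 0.234 in edgeR's test). Col9a3 had 82 of its 101 counts in dentate gyrus 1, and Col9a1, Col9a2, Col14a1 and Col16a1 had at most 30 counts in a library.

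The fibrillar collagens and multiplexins were low and uneven between replicate libraries. Of the 7 tested of 11 fibrillar genes edgeR called 0, with 0 at an unadjusted p under 0.05, and DESeq2 and limma voom called 0. Col1a1 and Col1a2, the chains of collagen I, the main collagen of fibroblasts and meninges, reached at most 2.30 and 1.91 CPM in a library. Col1a2 was higher in both cortex libraries, at 1.91 and 0.984 CPM beside 0.110, 0.0444 and 0.783 CPM in dentate gyrus, and Col3a1, their usual companion in fibroblasts, had 2 counts in all. Col2a1, the cartilage collagen, had 176 and 0 counts in cortex and 120, 0 and 0 in dentate gyrus. Its level thus rests on 1 library in each tissue, cortex 1 and dentate gyrus 1. Col5a1, Col5a2, Col11a1 and Col27a1 had at most 50 counts in a library, and Col3a1, Col5a3, Col11a2 and Col24a1 were not tested. Both multiplexins, Col15a1 and Col18a1, were tested, and edgeR, DESeq2 and limma voom called 0 of them (0 at an unadjusted p under 0.05 in edgeR). Col18a1 stood at 0.171 and 0.328 CPM in cortex and 0.469, 0.0888 and 3.64 CPM in dentate gyrus, and Col15a1 at 3.22 and 0.451 CPM in cortex and 0.193, 0.488 and 2.0 CPM in dentate gyrus. Markers of meningeal and vascular fibroblasts summed to 43.3 to 51.0 CPM in cortex and 17.1 to 131.8 CPM in dentate gyrus, with 1 of 7 tested called by edgeR: Lum, towards dentate gyrus, with 1 and 0 counts in cortex and 142, 126 and 98 in dentate gyrus. DESeq2 also called Igf2 towards cortex and Ogn towards dentate gyrus, and limma voom also called Ogn. The highest sum came from Dcn in dentate gyrus 2, at 114 CPM. Their part in the collagen values was not tested.

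Genes that make, bind or signal with these proteins were taken from 4 further lists. Of 31 collagen-processing genes listed, 21 were tested and 3 were called (14.3%, beside 21.3% of all genes tested), 1 towards dentate gyrus and 2 towards cortex. The median log2 fold change of the list was 0.22, and -0.57 without dentate gyrus 3. P4ha1, a prolyl 4-hydroxylase subunit that hydroxylates collagen chains, stood at 8.49 and 15.9 CPM in cortex and 27.5, 44.0 and 30.1 CPM in dentate gyrus, higher in every dentate gyrus library (log2 fold change 1.48, SE 0.38, adjusted p = 0.0200 in edgeR's test). Its adjusted p was 0.131 without cortex 1 and 0.0624 without dentate gyrus 2. P4ha3, a second subunit of that kind, stood at 4.05 and 20.9 CPM in cortex and 1.13, 2.04 and 0.783 CPM in dentate gyrus, higher in both cortex libraries (log2 fold change -3.24, SE 0.78, adjusted p = 0.0150 in edgeR's test). Its adjusted p was 0.439 without cortex 2, 0.0561 with the replicate block and 0.0604 in limma voom, and the 9.48-fold ratio of means was 3.07 without cortex 2 and 15.9 without cortex 1. Crtap, of the prolyl 3-hydroxylation complex, had 30 and 14 counts in cortex and 0 in dentate gyrus, at least 20.1-fold higher in cortex and 11.5-fold without dentate gyrus 1 (adjusted p = 0.0474 in edgeR's test), and lost the call in 10 of 13 alternatives, among them DESeq2 (0.0793), limma voom (0.0534), the replicate block (0.227), and the fits without cortex 2 (0.202), dentate gyrus 1 (0.0630), dentate gyrus 2 (0.0647) or dentate gyrus 3 (0.0586).

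Of 24 other integrin ligands, 22 were tested and 2 were called (9.09%, beside 21.3% of all genes tested), of which Npnt is described. The median log2 fold change was 0.16, and it was -0.03 without dentate gyrus 2 and -0.41 without dentate gyrus 3. Npnt, encoding nephronectin, a ligand of α8β1, stood at 21.7 and 24.3 CPM in cortex and 81.6, 56.5 and 67.5 CPM in dentate gyrus. All dentate gyrus libraries were higher, as they were for the receptor chain Itga8 (log2 fold change 1.58, SE 0.25, adjusted p = 0.00158 in edgeR's test). Vcam1, the counter-receptor of α4β1, stood at 1.34 and 1.43 CPM in cortex and 0.469, 1.38 and 3.13 CPM in dentate gyrus, with overlap (log2 fold change 0.25, SE 1.12, adjusted p = 0.908 in edgeR's test). Fn1, encoding fibronectin, was higher in every dentate gyrus library, at 15.97, 18.96 and 8.73 CPM beside 6.24 and 4.55 CPM in cortex. It was not called by edgeR (log2 fold change 1.43, SE 0.49, adjusted p = 0.0646) but was called by DESeq2. Vcam1 and Fn1 are named as ligands of called integrins and were picked with their values in view.

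Of 25 integrin adaptor and signalling genes, 23 were tested and 5 were called (21.7%, near the 21.3% of all genes tested), with a median log2 fold change of 0.27. Ptk2b, encoding the focal adhesion kinase relative PYK2, stood at 343 and 265 CPM in cortex and 1177, 835 and 1069 CPM in dentate gyrus, with no overlap (log2 fold change 1.75, SE 0.17, adjusted p = 8.97e-05 in edgeR's test). Its paralog Ptk2, the focal adhesion kinase itself, was not called, with 117 and 87.9 CPM in cortex and 121, 122 and 109 CPM in dentate gyrus. Parvb and Parvg encode parvins, which join integrin-linked kinase to actin. Parvb stood at 6.10 and 5.41 CPM in cortex and 51.7, 32.7 and 34.2 CPM in dentate gyrus (log2 fold change 2.78, SE 0.34, adjusted p = 0.000384 in edgeR's test). Parvg stood at 0.826 and 0.246 CPM in cortex and 47.5, 28.2 and 13.1 CPM in dentate gyrus (log2 fold change 5.73, SE 0.75, adjusted p = 0.000551 in edgeR's test). Its means differed 55.2-fold, 120-fold without cortex 1 and 35.8-fold without cortex 2. Both parvins were above cortex in all dentate gyrus libraries. Their genes lie close together on the plus strand, Parvb at chr15:84232043-84315688 and Parvg at chr15:84324026-84342978. Whether their differences are independent of each other was not tested. Ilk, encoding integrin-linked kinase, overlapped between the tissues, at 10.4 and 25.4 CPM in cortex and 33.7, 16.2 and 19.3 CPM in dentate gyrus.

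Rap1a, a small GTPase upstream of talin in integrin activation, stood at 62.9 and 47.1 CPM in cortex and 123, 132 and 110 CPM in dentate gyrus, with no overlap (log2 fold change 1.15, SE 0.20, adjusted p = 0.00282 in edgeR's test). Tln2, the talin of brain and muscle, was the 1 adaptor called towards cortex, at 115 and 119 CPM in cortex and 74.1, 56.6 and 89.2 CPM in dentate gyrus (log2 fold change -0.67, SE 0.21, adjusted p = 0.0485 in edgeR's test). The naming rule, which takes 4 called genes a list, did not cover Tln2, Ptk2 and Ilk, which were picked with their values in view. Without cortex 1, cortex 2, dentate gyrus 1 or dentate gyrus 2 the adjusted p for Tln2 was 0.154, 0.17, 0.0732 and 0.0933. Of 6 non-integrin collagen receptors listed, 4 were tested and edgeR called 0, with 0 at an unadjusted p under 0.05, and DESeq2 and limma voom also called 0. Their median log2 fold change was -0.91, and it was 1.01 without cortex 1, where 5 of them were tested. Ddr1, a discoidin-domain receptor tyrosine kinase for collagen, was higher in every dentate gyrus library, at 7.53, 4.84 and 8.06 CPM beside 2.65 and 3.40 CPM in cortex, and was not called (log2 fold change 1.17, SE 0.60, adjusted p = 0.210 in edgeR's test). Without dentate gyrus 2, 1 of them passed the threshold: Lair1, an inhibitory collagen receptor of leukocytes (adjusted p = 0.0328 in edgeR's test), which stood at 7.27 and 1.02 CPM in cortex and 0.138, 4.17 and 0.117 CPM in dentate gyrus and was, like Ddr1, named with its values in view.

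**Figure D4:**
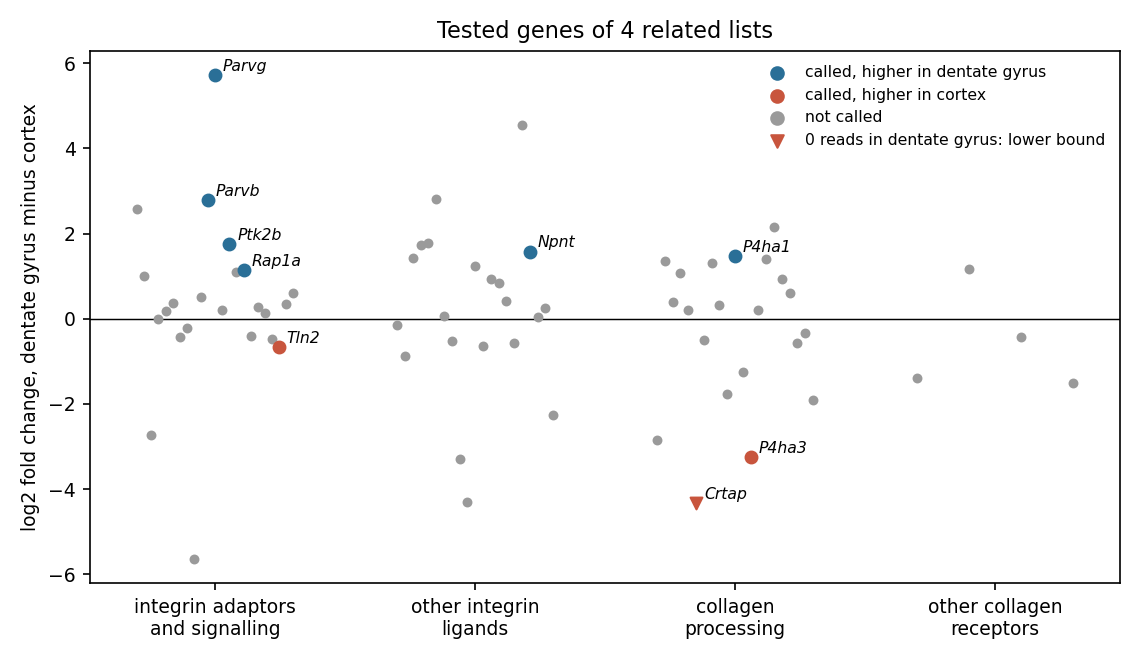
Log2 fold change of dentate gyrus over cortex (y axis) for the tested genes of 4 related lists: integrin adaptors and signalling (23 genes), other integrin ligands (21 of the 22 tested), collagen processing (21) and non-integrin collagen receptors (4). Called genes are coloured by tissue and named, 5, 1, 3 and 0 in that order, and the triangle marks the lower bound for Crtap, which had 0 counts in dentate gyrus.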

How the data were processed

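Ribosome-bound RNA was measured in 2 cerebral cortex and 3 dentate gyrus libraries, grouped by the tissue in the labels. The deposited values are raw counts per gene symbol. STAR 2.0.0e, HTSeq and the build mm10 are named in the submitters' processing notes; for the gene annotation, HTSeq version and strand setting, no statement was found in the sources used here. Summary entries naming no gene were left out: 10.59 to 14.83% of the entries per library had no feature, 25.03 to 31.76% were not unique and 1.81 to 1.87% were ambiguous. CPM values were computed from gene counts scaled by TMM factors (0.9843 to 1.018), and CPM per kb used the union exon length of GENCODE M21 (GRCm38), which also gave positions and exon overlaps.

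Tissues were compared with edgeR 4.0.16 in R 4.3.3 (quasi-likelihood F test, filterByExpr, Benjamini-Hochberg adjustment over 14136 genes, called under 0.05). This test returns no SE. Each SE printed beside it was derived as the absolute log2 fold change divided by the square root of the F statistic, and is approximate. The floor was 3 counts over a group, 0.0504 CPM for cortex and 0.0356 for dentate gyrus, and covers counting error only. Alternatives were other scalings and filters, DESeq2 1.42.0, limma 3.58.1 voom, a robust fit, a test against a 2-fold change (glmTreat), a replicate block and fits without libraries. Fits without a cortex library leave 1 cortex sample, assumed to vary like dentate gyrus. Values were named for the called members, for the 6 uncalled members per family with the highest mean CPM per kb, for partner chains, for members resting on 1 library and for up to 4 called genes of each further list. Other named members complete the account of each class. Members and lists were chosen with earlier results of these data known. The fit was also run on counts simulated with the means and dispersions of these data. It called 24 of 100 genes changed 2-fold and 48 of 100 changed 4-fold, with 5 false calls among 77. A gene not called may therefore still differ. Of the 2 called genes in the list of other integrin ligands, 1 is not reported here.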

Additional observations from a re-analysis of the deposited data

How the results depend on the processing

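The members called are those of edgeR's test unless another tool is named. Col8a1, Itga4, Itga8 and Itgb3 were called in the same direction in all 15 alternatives, with adjusted p at most 0.00588, 0.0110, 0.0190 and 0.0116. Col25a1, Col26a1, Itga1 and Itgb8 lost the call in 6, 5, 6 and 1 of the 15. All 8 were kept with RLE scaling, without scaling, without a filter, with the strict filter, in DESeq2 and in the robust fit.

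Against a 2-fold change, 842 of all genes were called in place of 3009, with 1 collagen towards cortex, 0 towards dentate gyrus, 0 collagen-processing genes, 1 other ligand and 3 adaptors. Here Col25a1, Col26a1 and Itga1 had adjusted p of 0.934, 0.0539 and 0.0600. Leaving out cortex 1 and dentate gyrus 2 together, libraries known from earlier results to hold genes unlike their group, called 1578 genes, with 1 collagen towards cortex, 0 towards dentate gyrus, 3 integrins towards cortex, 2 towards dentate gyrus, 1 processing gene and 1 ligand, and kept 4 of the 8 members. DESeq2 called 5 processing genes, 7 ligands and 3 integrins towards cortex; no filter gave 5 ligands and 3 such integrins, the strict filter 4 and 2, and limma voom 2 such integrins. Leaving out 1 library called 1886 to 2775 genes in all, 1 to 2 processing genes, 1 to 4 ligands, 4 to 5 adaptors, 0 to 1 non-integrin receptors, 1 to 2 collagens and 1 to 3 integrins towards cortex, and 0 to 1 collagens and 3 to 4 integrins towards dentate gyrus.

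With the replicate block, 2237 genes were called, and 1 collagen towards cortex, 0 towards dentate gyrus, 1 processing gene and 1 ligand. Same-numbered libraries deviated from their tissue means with correlations of -0.004 and -0.0163. With 2 cortex libraries these deviations mirror each other, so the correlations cannot decide whether the numbers mark shared animals. Leaving out 1 library, the log2 fold change of Col19a1 ran from -2.66 (without dentate gyrus 3) to 0.33 (without dentate gyrus 1) and was 0.21 without dentate gyrus 2; without cortex 1 and dentate gyrus 2 together it was 0.18. That of Itga11 ran from -0.32 (without cortex 2) to 1.52 (without cortex 1). The cause of these changes was not tested, other than that fewer libraries were fitted or a stricter null used. Members under 3 counts in a tissue cannot be told from absent at this depth.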
